A study of Mus musculus with 12 samples.

Results

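Hox genes encode homeodomain transcription factors that give cells their position along the body and limb axes. Every row of the deposited count table whose symbol is exactly Hoxa, Hoxb, Hoxc or Hoxd followed by a number was taken, and antisense and other named noncoding rows were left out. This gave 39 of 32245 gene rows, 11 in the HoxA cluster, 10 in HoxB, 9 in HoxC and 9 in HoxD. OCY454 is a mouse cell line of osteoblast to osteocyte type that grows at 33 °C and differentiates at 37 °C. Unedited cells (WT) were compared with a line in which exons 19 to 21 of the mechanically gated channel gene Piezo1 had been removed by CRISPR-Cas9 (KO). Polyadenylated RNA came from cells kept at 37 °C for 1, 14 or 28 days. Each line had 2 libraries a day, 12 in all, and no other treatment was named. The labels describe 1 edited line and do not say how many clones it came from or whether replicates were separate cultures. A difference between the lines therefore cannot be told apart from a difference between clones, and each p-value speaks only of the spread among these libraries, which may be technical.

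The 39 mammalian Hox genes lie in 4 clusters on different chromosomes, and genes with the same number in different clusters (paralogs) descend from a common ancestor. Within a cluster, low numbers are switched on early and toward the head, and high numbers later and toward the tail and the tips of the limbs. Polycomb complexes keep unused stretches of a cluster silent, trithorax proteins keep used stretches active, and retinoic acid and Cdx factors act on them in the embryo. Cells taken from the adult skeleton usually keep the Hox pattern of the place they came from, and Hox proteins bind DNA with TALE homeodomain cofactors of the Pbx and Meis families.

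Piezo1 was counted in every library and its count does not check the deletion, because reads of all its other exons are included. Its WT counts were 3323 and 3268 (day 1), 2499 and 1781 (day 14), then 3369 and 2929 (day 28). Those of the libraries labelled KO were 1988 and 2302 (day 1), 1211 and 1255 (day 14), then 3254 and 4058 (day 28). The KO minus WT log2 fold change was -0.34 ± 0.06, -0.91 ± 0.06 and 0.22 ± 0.06, each called, so at day 28 it went against the label, and "KO" in all that follows means the libraries labelled KO. Totals ran from 8590067 to 15357427 counts per library, and 3 counts corresponded to between 0.195 and 0.347 CPM, the count scaled to the total of its library. Of the bone markers, Col1a1 had group means of 2260 to 17800 CPM, Runx2 of 114 to 328 and Dmp1 of 4.57 to 14, while Sost stayed between 0.549 and 1.21 and Fgf23 did not exceed 0.131. Epithelial markers moved with the line: the 6 of them summed to between 10.2 and 19.1 CPM in WT libraries and between 0.952 and 2.36 in KO, and Krt14 and Cdh1, the only 2 tested, were lower in KO at all 3 days. Their part in the Hox results was not tested. Over all days pooled, summed markers overlapped between the lines for blood cells (6 to 14.7 CPM in WT, 6.79 to 8.83 in KO), endothelium (2.08 to 5.94 and 1.32 to 2.45), cartilage (41.1 to 68.2 and 37.4 to 65.3), fat (19.2 to 29.2 and 19.6 to 26.5) and muscle (5.18 to 12.8 and 7.17 to 9.99). Cd3e, Myod1 and Myog had 0 counts in every library. Within the fat list Pparg went from 5.06, 6.14 and 7.15 CPM in WT to 0.0736, 0.137 and 0.0865 in KO (means of days 1, 14 and 28). Cebpa was higher in KO at all 3 days and Adipoq lower at day 14. Called differences lay inside the other lists too. Among 13 tested bone markers, KO was higher in 3 and lower in 2 (day 1), or 38.5% called, where 40.3% of all genes were. Day 14 had 4 higher and 6 lower, or 76.9% called, where 49.7% of all genes were. Day 28 had 1 higher and 5 lower, or 46.2% called, where 41% of all genes were, so days 1 and 28 lay near the share of all genes. On day 14, KO exceeded WT for Col1a1 (1.31 ± 0.16) and Sp7 (1.06 ± 0.16). It fell short of WT for Dmp1 (-0.93 ± 0.23) and Bglap (-0.90 ± 0.28). By day 28, Sp7 was still higher (0.69), with Pdpn (-1.31) and Alpl (-1.23) lower. Kdr of the endothelium was lower in KO at day 14 (2.31 CPM in WT, 0.446 in KO) and day 28 (4.34 and 0.463). Of the cartilage list, Col2a1 was lower at days 1 and 14 (-1.36 ± 0.38 and -1.48 ± 0.41) and Matn3 at day 1, and Sox9 was higher at days 1 and 14 (0.32 ± 0.08 and 0.51 ± 0.10) and lower at day 28 (-0.67 ± 0.09). Acta1 of muscle (2.76 CPM in WT, 0.309 in KO) and Csf1r of blood (-0.76 ± 0.31) were lower at day 14, and Des of muscle was higher at day 1 (0.67 ± 0.19). The part of these in the Hox results was not tested either.

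The sequences before the RefSeq starts of 4 Hox genes are shown to set 3 genes that differ between the lines beside a silent one: Hoxd8, Hoxd4 and Hoxb8 were low in WT and many times higher in KO, and Hoxd10, in the same cluster as the first 2, had no read in any library. Each is the 250 bases before the RefSeq start (GRCm38.p6, plus strand), with CpG dinucleotides, the sites of DNA methylation in mammals, in capitals. They lie at chr2:74704365-74704614 for Hoxd8, chr2:74721728-74721977 for Hoxd4, chr11:96281655-96281904 for Hoxb8 and chr2:74691641-74691890 for Hoxd10, and none of the 4 stretches holds an annotated exon. The Hoxd4 stretch lies inside the longer Hoxd4 gene of the annotation used for positions (74711929 to 74729160), and inside Hoxd3 (74711927 to 74748442). It is thus not upstream of that annotated gene.
Hoxd8: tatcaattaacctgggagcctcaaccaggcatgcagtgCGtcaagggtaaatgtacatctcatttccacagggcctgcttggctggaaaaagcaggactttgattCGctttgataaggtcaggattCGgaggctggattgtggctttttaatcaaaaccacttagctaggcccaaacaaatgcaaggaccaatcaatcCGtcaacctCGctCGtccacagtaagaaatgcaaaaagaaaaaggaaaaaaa
Hoxd4: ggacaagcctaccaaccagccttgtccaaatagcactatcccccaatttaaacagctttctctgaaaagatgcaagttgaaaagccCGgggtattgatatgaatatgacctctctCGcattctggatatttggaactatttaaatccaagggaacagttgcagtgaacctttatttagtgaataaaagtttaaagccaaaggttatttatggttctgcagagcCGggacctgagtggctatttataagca
Hoxb8: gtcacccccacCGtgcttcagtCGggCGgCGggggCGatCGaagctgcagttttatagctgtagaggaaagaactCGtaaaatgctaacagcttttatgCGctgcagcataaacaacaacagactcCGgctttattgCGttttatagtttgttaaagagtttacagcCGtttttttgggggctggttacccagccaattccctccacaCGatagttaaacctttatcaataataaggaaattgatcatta
Hoxd10: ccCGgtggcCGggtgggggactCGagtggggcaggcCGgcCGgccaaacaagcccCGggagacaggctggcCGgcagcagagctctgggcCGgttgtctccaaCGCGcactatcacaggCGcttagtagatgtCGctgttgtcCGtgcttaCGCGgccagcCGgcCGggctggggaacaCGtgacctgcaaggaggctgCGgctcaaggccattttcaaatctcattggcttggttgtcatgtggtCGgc
The Hoxd8 stretch held 6 CpGs at 44.4% G and C, the Hoxd4 stretch 3 at 40.4%, the Hoxb8 stretch 12 at 44.4% and the Hoxd10 stretch 20 at 65.6%. Over all 32851 such windows in the RefSeq table the median was 6 CpGs at 52.4% G and C, and over the 24 windows of the 22 Hox genes in it the medians were 12.5 and 58.6%. The sequence of the silent gene was the most CpG-rich of these 4 chosen stretches, which does not carry over to the other Hox windows. Of the other genes without a read, Hoxb1 had 7 CpGs and Hoxd1 24. Among genes read in every library, windows ran from 3 CpGs (Hoxa9) to 35 (Hoxa13). A link between CpG number and level was not tested. Both strands were searched for TGATNNAT, the composite site of Hox and Pbx proteins, which was found in 4 of 24 Hox windows (16.7%) and in 7.68% of all windows. Of the 4 stretches printed, the Hoxb8 stretch held such a match (TGATCAAT, on the opposite strand, 11 bases before the start). TAATTA, the core homeodomain site, was found in 2 of 24 Hox windows (8.33%), both of Hoxd11, and in 4.84% of all. Direct repeats of AGGTCA spaced 5 or 2 bases apart, as retinoic acid receptors bind them, were in none of the Hox windows and, at either spacing, in 3 of 32851. No measurement of binding or methylation goes with these matches.

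In both lines the Hox genes in use were mainly those of the middle and posterior HoxA and HoxC clusters (Hoxa5 to Hoxa10 and Hoxc4 to Hoxc13). Compared per length, as CPM per kilobase of exon, the highest in WT at day 1 were Hoxc9 (14.9), Hoxc10 (13.8) and Hoxc6 (13.7), whose libraries overlapped, followed by Hoxa7 (8.41) and Hoxc8 (8.37), which overlapped each other. Hoxb9, which helps to pattern the ribs, was the thirteenth Hox gene in that order at 3.35. By day 28 in WT the order was Hoxc6 (18.1), Hoxc10 (16) and Hoxa7 (13.2), each clear of the next, and Hoxb9 had fallen to fifteenth (1.15). The KO line at day 1 began with the same genes, Hoxc6 (18.6), Hoxc9 (18.5) and Hoxc10 (18.2), again overlapping, with Hoxb9 next (13.3) and clear of its neighbours. At day 28 Hoxb9 was first in KO at 23.3 (libraries 21.9 and 24.7), above both libraries of Hoxc10 (17 and 17.3). Hoxd8 stood at 0.22 CPM per kilobase in WT and 3.59 in KO on that day, and Hoxd4 at 0.014 and 0.765.

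**Figure D1:**
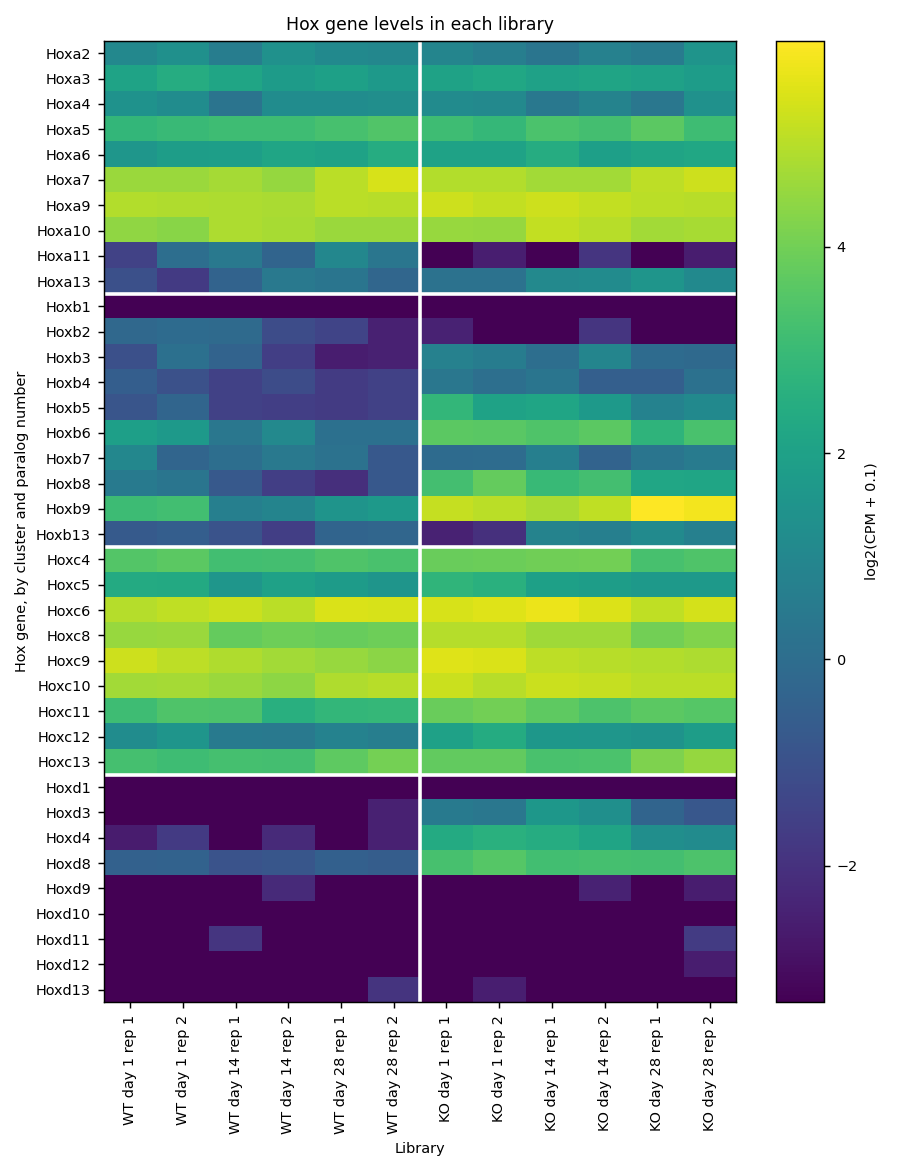
Level of 38 Hox genes (vertical axis, by cluster and paralog number) in each of the 12 libraries (horizontal axis), as log2(CPM + 0.1) by colour. White lines part the clusters and the lines; Hoxa5 to Hoxa10 and most of HoxC are bright in all 12 libraries, while Hoxb5 to Hoxb9 (other than Hoxb7) and Hoxd3, Hoxd4 and Hoxd8 are brighter in all 6 KO libraries.

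A total of 7 members never had more than 3 counts in a library and did not pass the low-count filter. Hoxb1, Hoxd1 and Hoxd10 had 0 counts throughout, and Hoxd9, Hoxd11, Hoxd12 and Hoxd13 had 3, 5, 1 and 3 counts over all 12 libraries. A count of 0 allows up to 3 counts, or 0.195 to 0.347 CPM, for counting error only. The posterior end of HoxD, which shapes the hand and foot and the external genitalia, was therefore at or under this limit in both lines. So were Hoxb1 and Hoxd1, the head-most members of their clusters. The other 32 members were tested, 11 of 11 in HoxA, 9 of 10 in HoxB, 9 of 9 in HoxC and 3 of 9 in HoxD.

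Summed by cluster, HoxB and HoxD reads set the lines apart. HoxB genes summed to 17.7 ± 0.346, 6.59 ± 0.0139 and 6.48 ± 0.179 CPM (SD, n = 2; days 1, 14 and 28) in the WT line, against 67.3 ± 2.34, 59.5 ± 5.48 and 79.3 ± 2.37 in KO. As a share of all Hox reads this was 6.47%, 2.72% and 2.34% in WT and 16.5%, 15.5% and 20.9% in KO. HoxD genes summed to 0.784 ± 0.0975, 0.642 ± 0.0736 and 0.768 ± 0.198 CPM in WT and to 17.4 ± 1.91, 16.7 ± 0.691 and 12.9 ± 0.931 in KO. The 2 major clusters differed by smaller ratios: HoxA lay at 98.1, 104 and 122 CPM in WT and 114, 121 and 121 in KO, and HoxC at 157, 131 and 147 in WT and 210, 188 and 166 in KO. All Hox reads together came to between 233 and 283 CPM in WT libraries and between 372 and 413 in KO libraries. In bulk RNA, more cells using a gene and more RNA per cell cannot be told apart.

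**Figure D2:**
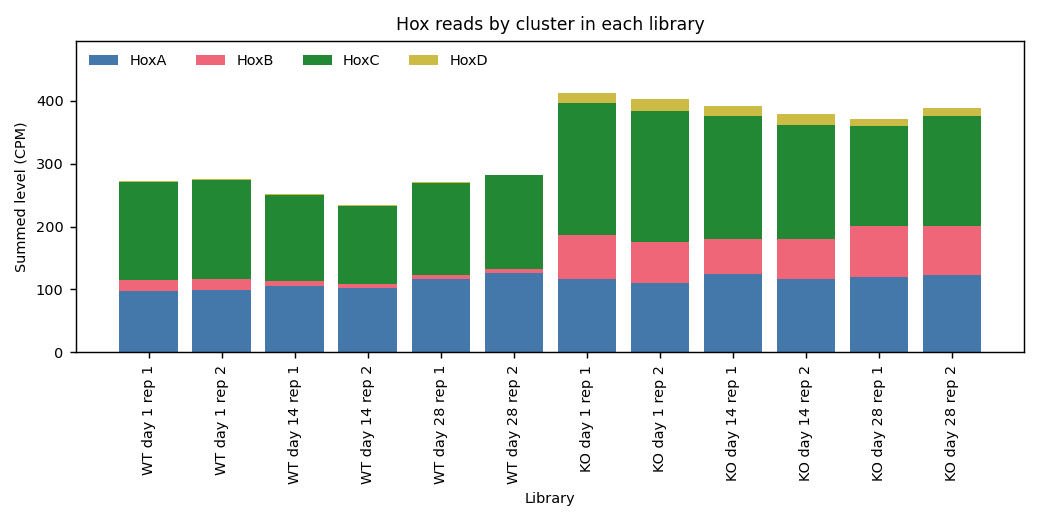
Summed CPM of the Hox genes of each cluster (stacked colours, vertical axis in CPM from 0) in each of the 12 libraries (horizontal axis). The HoxB and HoxD segments are thin in the 6 WT libraries, where all Hox reads reach 233 to 283 CPM, and wide in the 6 KO libraries, where they reach 372 to 413.

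The 3 comparisons of KO with WT ask how the edited line differs at each day of differentiation. Log2 fold changes are from 1 edgeR quasi-likelihood fit to all 12 libraries (n = 2 per group), ± gives the standard error, p-values are Benjamini-Hochberg adjusted over 13772 genes, and a gene is called below 0.05. At day 1, 17 of 32 Hox genes were called higher, 3 lower and 12 were not called, where 40.3% of all genes were called (19.5% higher and 20.8% lower). At day 14 it was 17 higher, 2 lower and 13 not called, with 49.7% of all genes called (23.8% higher and 25.9% lower). At day 28 it was 15 higher, 1 lower and 16 not called, with 41% called (19.8% higher and 21.2% lower). The median log2 fold change of the 32 was 0.36, 0.48 and 0.34 at the 3 days, and that of all genes -0.01, -0.02 and -0.01. Called changes of at least 2-fold upward numbered 8, 11 and 11 Hox genes, where 2.21%, 3.33% and 1.39% of all genes had one, and downward 3, 2 and 1, where 7.07%, 9.33% and 7.8% had one. Hoxa13, Hoxb5, Hoxb6, Hoxb8, Hoxb9, Hoxc12, Hoxd3, Hoxd4 and Hoxd8 were called higher at all 3 days (9 of 32, with 7.4% of all genes), and Hoxa11 lower at all 3 (1 of 32, with 8.67%). In 9 genes every KO library was above every WT library, whatever the day (Hoxb4, Hoxb5, Hoxb6, Hoxb8, Hoxb9, Hoxc10, Hoxd3, Hoxd4 and Hoxd8, with 5.44% of all genes), and in Hoxa11 every KO library was below (6.57%). The low-count filter partly shaped these counts. Hoxb3, Hoxb4, Hoxb5, Hoxb13, Hoxd3, Hoxd4 and Hoxd8 would not have passed it by their WT libraries alone. Hoxa11 and Hoxb2 would not have passed by their KO libraries alone. Such genes were tested because they were high in 1 line. How far this raised the Hox shares was not tested. Without the first, or without the second, KO library of day 1, 13 Hox genes were called at that day in place of 20. The genes called at every day under each of 19 other settings and left-out libraries were Hoxb5, Hoxb6, Hoxb8, Hoxb9, Hoxd4 and Hoxd8.

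**Figure D3:**
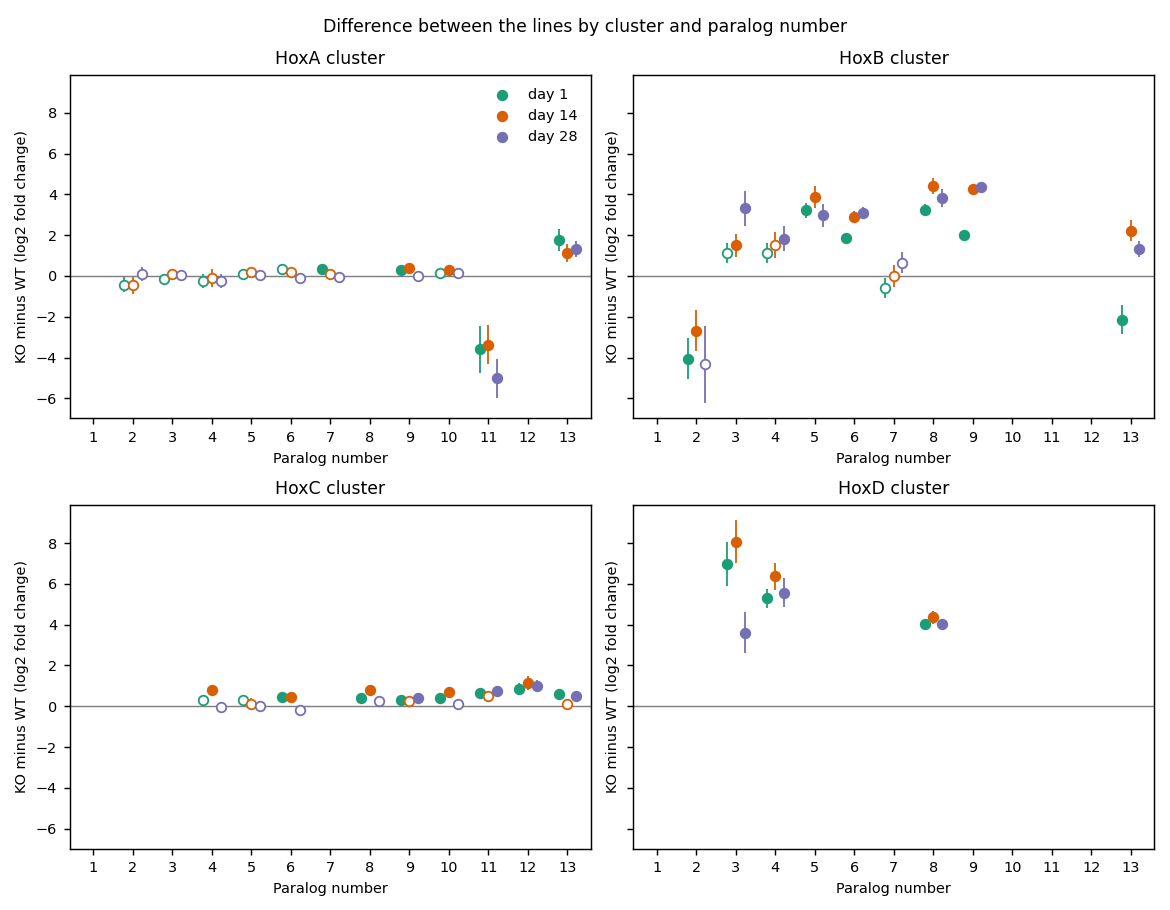
Log2 fold change KO minus WT (vertical axis) of 31 tested Hox genes by paralog number (horizontal axis), 1 panel per cluster, colours for days 1, 14 and 28. Filled points passed an adjusted p of 0.05, open points did not, and bars are standard errors; most HoxA and HoxC points lie near 0, and those of Hoxb5, Hoxb6, Hoxb8, Hoxb9 and the 3 tested HoxD genes lie above 0. Some fitted values rest on groups of 0 to 5 counts and depend on the small prior count of the fit. These are the values of Hoxd3, Hoxd4, Hoxa11 and Hoxb2, of Hoxb3 at day 28, of Hoxb5 at day 14 and of Hoxb13 at day 1.

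HoxD was close to silent in WT and carried 3 genes with reads in every KO library, next to each other on chromosome 2. Hoxd8 (ENSMUSG00000027102.4, chromosome 2, 74704615 to 74707933, plus strand), a trunk and limb patterning gene, had 10 and 10 WT counts on day 1, then 5 and 4 (day 14) and 9 and 7 (day 28). Its KO counts were 114 and 158, then 94 and 110, then 106 and 155. The lowest KO library was far above the highest WT library, and the log2 fold change was 4.02 ± 0.26 at day 1 (adjusted p = 9.32e-11), 4.35 ± 0.32 at day 14 (4.42e-10) and 4.01 ± 0.27 at day 28 (3.15e-10).

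Hoxd4 (ENSMUSG00000101174.8, chromosome 2, 74711929 to 74729160), which specifies the upper neck vertebrae, had 1 and 3 WT counts on day 1, then 0 and 1 (day 14) and 0 and 1 (day 28). Its KO counts were 59 and 80, then 57 and 50, then 27 and 32. The log2 fold change at day 1 was 5.29 ± 0.47 (adjusted p = 1.66e-08), and by the counts alone KO was 98.6-fold higher at day 14 (exact 95% interval 17.3 to 3930) and 59.4-fold higher at day 28 (10.2 to 2380). Hoxd3 (ENSMUSG00000079277.9, chromosome 2, 74711927 to 74748442), which acts with Hoxd4 in the upper neck, had 0 counts in 5 WT libraries and 1 in the other. KO libraries held 15 and 16, 31 and 28, and 8 and 7 counts of Hoxd3. With 3 counts over the group in place of 0, KO was at least 12.5-fold higher at day 1 and at least 18.1-fold higher at day 14, and at day 28 it was 15.1-fold higher (2.32 to 635). These intervals and bounds cover counting error only. Hoxd3 was called at all 3 days (adjusted p = 3.74e-05, 2.64e-06 and 0.00676), but at day 28 not without the first WT library of that day (log2 fold change 2.65, adjusted p = 0.0799). Hoxd3 and Hoxd4 overlap on the same strand in the annotation used for positions. There, 62.3% and 52.3% of their exon bases are shared with each other or a transcript spanning both. That transcript had no row among the deposited counts, so the shares may differ in the annotation used for counting. How reads divide between these 2 genes is uncertain. Hoxd9, whose start is upstream of Hoxd8 with 4.41 kb between the genes, had 1 count in WT and 2 in KO over 6 libraries each, and on the other side Hoxd1 had none.

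In HoxB, a run of neighbours from Hoxb9 to Hoxb5 (34.7 kb of chromosome 11) was higher in KO at every day, except Hoxb7, which sits in its middle. Hoxb9 (ENSMUSG00000020875.9, chromosome 11, 96271457 to 96276595, plus strand), a gene of rib and thoracic identity, had 127 and 137 WT counts on day 1, then 18 and 15 (day 14) and 39 and 39 (day 28). Its KO counts were 425 and 439, then 293 and 395, then 736 and 832. Its log2 fold change was 1.99 ± 0.13 at day 1 (adjusted p = 1.16e-10), 4.25 ± 0.20 at day 14 (3.29e-13) and 4.34 ± 0.15 at day 28 (1.9e-14). Hoxb8 (chromosome 11, 96281905 to 96285315), known for its part in the thoracic spinal cord and in myeloid cells, had 20 and 17, 6 and 2, and 2 and 6 counts in WT and 108 and 187, 82 and 108, and 52 and 65 in KO. The fold change of Hoxb8 was 3.25 ± 0.28, 4.42 ± 0.41 and 3.83 ± 0.44 on the log2 scale at the 3 days (adjusted p at most 5.27e-07).

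Hoxb6 (chromosome 11, 96292476 to 96301569), a thoracic vertebra gene, had 58 and 47, 14 and 17, and 14 and 12 counts in WT and 146 and 165, 112 and 143, and 75 and 146 in KO. It was higher in KO by 1.84 ± 0.21, 2.90 ± 0.28 and 3.07 ± 0.29 (adjusted p at most 6.52e-07). Hoxb5 (chromosome 11, 96303336 to 96306121), which patterns the shoulder level, had 7 and 11, 3 and 2, and 3 and 3 counts in WT against 83 and 55, 46 and 37, and 19 and 30 in KO. Its log2 fold change was 3.21 ± 0.38, 3.89 ± 0.53 and 2.98 ± 0.56 (adjusted p at most 0.000224). For these 4 genes no KO library of any day overlapped a WT library of any day. Hoxb7 (chromosome 11, 96286623 to 96290162), between Hoxb8 and Hoxb6, had 29 and 11, 11 and 11, and 15 and 6 counts in WT and 10 and 12, 16 and 8, and 13 and 20 in KO. Its fold change was -0.58 ± 0.50, 0.01 ± 0.55 and 0.66 ± 0.52 with adjusted p of 0.385, 0.994 and 0.334, and its 95% interval at day 14 was -1.14 to 1.15.

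The anterior and the posterior ends of HoxB were read at low levels, and only part of them followed that run. Hoxb2 went against it, as did Hoxb13 at day 1. Hoxb3 and Hoxb4 had both KO libraries above both WT libraries at each day but were not called at each. Hoxb2, a hindbrain gene, had 12 and 13, 10 and 3, and 4 and 1 counts in WT and 1 and 0, 0 and 2, and 0 and 0 in KO. By the counts it was 20.7-fold lower in KO at day 1 (3.38 to 848; adjusted p = 0.00299) and 7.06-fold lower at day 14 (1.6 to 64.4; adjusted p = 0.0323). The 5 counts of day 28 against 0 give a bound of at least 1.66-fold lower without a call (0.0733). Hoxb3, next to it, went the other way, with 6 and 15, 8 and 2, and 1 and 1 counts in WT and 19 and 19, 10 and 21, and 10 and 12 in KO. Hoxb3 was not called at day 1 (1.12 ± 0.48, adjusted p = 0.0664), was called at day 14 (1.50 ± 0.58, adjusted p = 0.037) and was 11.1-fold higher at day 28 (2.72 to 97.1; adjusted p = 0.00403). Hoxb4, a gene of neck vertebrae and blood stem cells, had 3 to 9 counts in WT libraries and 7 to 15 in KO and was called at day 28 only (1.83 ± 0.63, adjusted p = 0.0245; 0.0819 and 0.0606 before).

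Hoxb13, which lies 74.01 kb from Hoxb9 and is known from the tail bud and the prostate, changed side between day 1 and day 14. WT libraries held 8 and 9, 5 and 2, and 10 and 9 counts, and KO libraries 1 and 2, 18 and 18, and 24 and 23. At day 1 KO was 4.68-fold lower by the counts (1.35 to 24.9; adjusted p = 0.0236), and at days 14 and 28 it was higher by 2.22 ± 0.52 (0.00139) and 1.31 ± 0.40 (0.013). Several of these low-count calls rest on single libraries (fitted log2 values follow, which depend on the prior count of the fit). Hoxb13 lost its call at day 1 without any 1 of the 4 libraries of that day (-2.57 to -1.84) and at day 28 without the first WT or the first KO library of that day (1.27 and 1.11). Hoxb2 lost it at day 1 without the second KO library (-3.11), and at day 14 without the first WT (-1.84) or the first KO library (-1.82). Hoxb3 lost it at day 14 without the second WT (1.03) or the second KO library (0.95). Hoxb4 lost it at day 28 without the first WT (1.71), the second WT (1.95) or the second KO library (1.38).

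Most HoxA members were not called, and the 2 most posterior genes of the cluster moved in opposite directions. Of 11 members, 4 were called at day 1, 4 at day 14 and 2 at day 28, each time a smaller share than of all genes. Hoxa11 (ENSMUSG00000038210.10, chromosome 6, 52242106 to 52245810, minus strand), the gene of the forearm and lower leg, had 4 and 14, 15 and 6, and 27 and 14 counts in WT and 0 and 1, 0 and 2, and 0 and 1 in KO. By the counts KO was 14.9-fold lower at day 1 (2.35 to 620; adjusted p = 0.0162), 11.4-fold lower at day 14 (2.79 to 100; 0.00634) and 40.8-fold lower at day 28 (6.92 to 1650; 0.000234). Hoxa13 (chromosome 6, 52257694 to 52260880), its neighbour 11.88 kb away and the gene of the hand and foot, had 6 and 3, 8 and 11, and 16 and 9 counts in WT and 12 and 14, 21 and 25, and 32 and 30 in KO. It was higher in KO by 1.77 ± 0.55 (adjusted p = 0.0136), 1.14 ± 0.43 (0.033) and 1.32 ± 0.39 (0.00897). Each day's KO libraries lay above that day's WT libraries.

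The Hoxa11 call was lost at day 1 without the second WT (-2.45), the first KO (-2.83) or the second KO library (-5.91). At day 14 it was lost without the first WT (-2.82) or the first KO library (-2.50), and at day 28 it was kept whichever library was left out. That of Hoxa13 was lost at day 1 without the second WT (1.38), the first KO (1.79) or the second KO library (1.77). At day 14 it was lost without the first WT (0.70), the first KO (1.19) or the second KO library (1.08), and at day 28 without the second WT (1.08) or the first KO library (1.11). The antisense transcript Hoxa11os shares 35% of the exon bases of Hoxa11 on the other strand. Whether counting used strand is not stated for these files.

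The abundant HoxA genes differed little. Hoxa9, a gene of the lumbar level and of blood progenitors, lay between 242 and 471 counts in WT libraries and between 381 and 483 in KO. It was higher in KO at day 1 (0.31 ± 0.09, adjusted p = 0.00926) and day 14 (0.38 ± 0.10, 0.00244) but not called at day 28 (0.01 ± 0.09). Hoxa7, a thoracic gene, was called at day 1 (0.33 ± 0.12, 0.0298) and Hoxa10, which suppresses ribs in the lumbar spine, at day 14 (0.28 ± 0.10, 0.0244). The Hoxa9 call of day 1 was lost without the second WT (0.29) or the first KO library (0.25), and that of Hoxa7 without any 1 of the 4 libraries of that day. That of Hoxa10 was lost without the first WT (0.33), the second WT (0.25) or the first KO library (0.21). Hoxa2 to Hoxa6, which act from the hindbrain to the shoulder, were not called at any day. Hoxa2 (12 to 40 counts per library), Hoxa3 (29 to 82), Hoxa4 (13 to 40), Hoxa5 (73 to 145) and Hoxa6 (38 to 67) overlapped between the lines over the libraries of all days.

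HoxC was the most abundant cluster in both lines, and its called members were all higher in KO, by under 1 on the log2 scale apart from Hoxc12 at day 14. Of 9 members 7 were called at day 1, 5 at day 14 and 4 at day 28 (77.8%, 55.6% and 44.4%), with none lower. Of all genes 40.3%, 49.7% and 41% were called in either direction, near the HoxC shares of days 14 and 28, and 19.5%, 23.8% and 19.8% were called higher. Hoxc12, a posterior member, had 34 and 43, 16 and 11, and 24 and 18 counts in WT and 46 and 71, 31 and 34, and 31 and 52 in KO. It was higher at all 3 days (0.87 ± 0.26, 1.14 ± 0.34 and 0.98 ± 0.30; adjusted p = 0.00997, 0.00861 and 0.0127). Hoxc10, a lumbar and hindlimb gene, had 397 and 408, 283 and 182, and 423 and 383 counts in WT and 442 and 431, 401 and 416, and 376 and 486 in KO. In CPM its KO libraries (31.7 to 37.8) all lay above its WT libraries (21.1 to 31.6), with calls at day 1 (0.40 ± 0.10, 0.00322) and day 14 (0.70 ± 0.11, 1.55e-05) but not at day 28 (0.10 ± 0.10, 0.444).

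Hoxc8, which patterns the ribs at the height of the forelimb, was higher at day 1 (0.38 ± 0.10) and day 14 (0.79 ± 0.12, adjusted p = 9.93e-06), and Hoxc6, its neighbour, by 0.45 ± 0.11 and 0.47 ± 0.11. At day 28 Hoxc6 was not called (-0.19 ± 0.11), but both KO libraries (33.9 and 42.2 CPM) lay below both WT libraries (43.3 and 43.8). Hoxc4, the most anterior HoxC gene, was called at day 14 only (0.80 ± 0.14, adjusted p = 8.99e-05). The posterior genes Hoxc11 (0.67 ± 0.18 and 0.73 ± 0.20), Hoxc13, a gene of hair and nails (0.61 ± 0.16 and 0.51 ± 0.14), and Hoxc9 (0.31 ± 0.10 and 0.42 ± 0.11) were called at days 1 and 28 and not at day 14. Hoxc5 was not called at any day (0.32 ± 0.20, 0.12 ± 0.26 and 0.03 ± 0.25). Calls of day 1 were lost without the first KO library for Hoxc10 (0.28) and Hoxc9 (0.29), without the second WT library for Hoxc9 (0.21), and without the first WT or second KO library for Hoxc11 (0.53 and 0.60) and Hoxc12 (0.71 and 0.64). At day 28 those of Hoxc12 (0.76) and Hoxc13 (0.33) were lost without the second KO library, and that of Hoxc13 without the first WT library (0.34).

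Read across the clusters by paralog number, mean sums were higher in KO at each day in groups 3 to 6 and 8 to 13. In groups 1 and 2 they were lower in KO at each day. Some of these differences lay within the spread of the libraries, such as group 6 at day 28 (SD 8.48 in KO). Group 12 went from 2.52, 1.31 and 1.58 CPM in WT to 4.58, 2.92 and 3.14 in KO, and group 13 from 9.7, 10.5 and 16.2 to 14.7, 13.7 and 24.6. Group 8 summed to 25.6 ± 0.213, 15.5 ± 0.881 and 15.5 ± 1.03 CPM in WT (SD, n = 2) and to 53.1 ± 4.69, 42.9 ± 1.33 and 31.5 ± 2.64 in KO, of which Hoxc8 alone gave 23.7, 14.6 and 14.5 in WT. Group 9 stood at 74.8 ± 3.71, 57.6 ± 2.79 and 57.4 ± 2.56 in WT and 116 ± 6.73, 100 ± 1.04 and 122 ± 6.8 in KO. Group 4 went from 14.8, 11.1 and 12.8 CPM in WT to 23.3, 23 and 15.1 in KO, and group 6 from 39.6, 40.8 and 49.2 to 61.2, 65.1 and 50.6. In group 7 the sums lay close together, at 25.5, 25.6 and 38.6 in WT and 31.3, 27.2 and 37.4 in KO. Paralogs could differ within a group. In group 11, Hoxa11 was lower and Hoxc11 higher in KO at days 1 and 28. In group 2, Hoxb2 was lower at day 1 while Hoxa2 was at -0.43 ± 0.37, and in group 3, Hoxb3 and Hoxd3 were higher at day 28 while Hoxa3 was at 0.06 ± 0.25.

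Within the WT line, Hoxb6, Hoxb8 and Hoxb9 fell after day 1. From day 1 to day 14, 2 Hox genes rose and 6 fell of 32, where 34.1% of all genes were called. Hoxb9 fell by 2.41 ± 0.23 (adjusted p = 9.36e-08), Hoxb8 by 1.61 ± 0.57, Hoxb6 by 1.17 ± 0.32, Hoxc12 by 0.93 ± 0.34, Hoxc8 by 0.70 ± 0.12 and Hoxc9 by 0.39 ± 0.10. Hoxa13 rose by 1.64 ± 0.59 and Hoxa10 by 0.40 ± 0.10. From day 14 to day 28, Hoxb9 (0.87 ± 0.29), Hoxa7 (0.61 ± 0.12), Hoxc13 (0.63 ± 0.16), Hoxc10 (0.43 ± 0.11) and Hoxc6 (0.30 ± 0.11) rose and Hoxc9 fell by 0.32 ± 0.11, 6 called where 34.7% of all genes were. Over the whole course 6 rose and 8 fell, where 48% of all genes were called. Falls were those of Hoxb2 (-2.06 ± 0.73), Hoxb3 (9.07-fold by the counts, 2.22 to 79.8), Hoxb6 (-1.79 ± 0.33), Hoxb8 (-1.96 ± 0.55), Hoxb9 (-1.54 ± 0.19), Hoxc5 (-0.70 ± 0.22), Hoxc8 (-0.71 ± 0.11) and Hoxc9 (-0.70 ± 0.10). Rises were those of Hoxa5 (0.46 ± 0.18), Hoxa7 (0.64 ± 0.12), Hoxa11 (1.37 ± 0.54), Hoxa13 (1.65 ± 0.56), Hoxc6 (0.40 ± 0.11) and Hoxc13 (0.70 ± 0.15). With each library left out in turn, Hoxb9 and Hoxc8 kept their calls from day 1 to day 14, Hoxa7 from day 14 to day 28, and Hoxa7, Hoxb6, Hoxb9, Hoxc8, Hoxc9 and Hoxc13 from day 1 to day 28. The other calls rested on single libraries: without any 1 of the 4 WT libraries of days 1 and 14, 4 of the 8 calls between those days were kept, and without the first of day 14 Hoxc11 was called in addition. Between days 14 and 28, 2 of the 6 calls were kept without the second WT library of day 28 and 3 without the second of day 14. Between days 1 and 28, 9 of the 14 were kept without the first, or without the second, WT library of day 1.

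Within the KO line, Hoxb9 rose while Hoxb5, Hoxb8 and Hoxd4 fell. From day 1 to day 14, 3 Hox genes rose and 4 fell, where 37.5% of all genes were called. Hoxb13 rose 13.6-fold by the counts (4.31 to 69.2), Hoxd3 by 1.11 ± 0.39 and Hoxa10 by 0.55 ± 0.10. Hoxc5 fell by 0.78 ± 0.22, Hoxc9 by 0.46 ± 0.10, Hoxc13 by 0.43 ± 0.16 and Hoxc8 by 0.29 ± 0.10. From day 14 to day 28, 3 rose and 8 fell, where 50.7% of all genes were called. Hoxc13 rose by 1.03 ± 0.15 (adjusted p = 8.11e-06), Hoxb9 by 0.96 ± 0.11 (2.07e-07) and Hoxa7 by 0.47 ± 0.12. Hoxd3 fell by 2.19 ± 0.44 (0.000367), Hoxd4 by 1.10 ± 0.30, Hoxb5 by 1.01 ± 0.34, Hoxb8 by 0.93 ± 0.24, Hoxc4 by 0.63 ± 0.14, Hoxc8 by 0.55 ± 0.11, Hoxc6 by 0.36 ± 0.11 and Hoxa10 by 0.34 ± 0.10. Between days 1 and 28, 4 rose and 8 fell, where 55.5% of all genes were called. The rises were those of Hoxb13 (15.1-fold by the counts, 4.85 to 75.7), Hoxa13 (1.20 ± 0.38), Hoxb9 (0.81 ± 0.11) and Hoxc13 (0.60 ± 0.14). The falls were those of Hoxb5 (-1.57 ± 0.32), Hoxb8 (-1.37 ± 0.23), Hoxd4 (-1.28 ± 0.29), Hoxc5 (-0.99 ± 0.22), Hoxc8 (-0.84 ± 0.11), Hoxc9 (-0.60 ± 0.10), Hoxb6 (-0.57 ± 0.19) and Hoxc4 (-0.53 ± 0.13). Hoxd8 was not called in any of the 3 steps, at 9.15 to 10.7 CPM as group means. With each library left out in turn, Hoxa10, Hoxb13 and Hoxc9 kept their calls from day 1 to day 14, Hoxb8, Hoxb9, Hoxc4, Hoxc8, Hoxc13 and Hoxd3 from day 14 to day 28, and all but Hoxa13, Hoxb6 and Hoxc13 from day 1 to day 28. Of the 7 calls between days 1 and 14, 3 were kept without the first KO library of day 1 or without the second of day 14. A total of 4 were kept without the second of day 1 or without the first of day 14. Without the first KO library of day 14, 7 of the 11 calls between days 14 and 28 were kept.

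**Figure D4:**
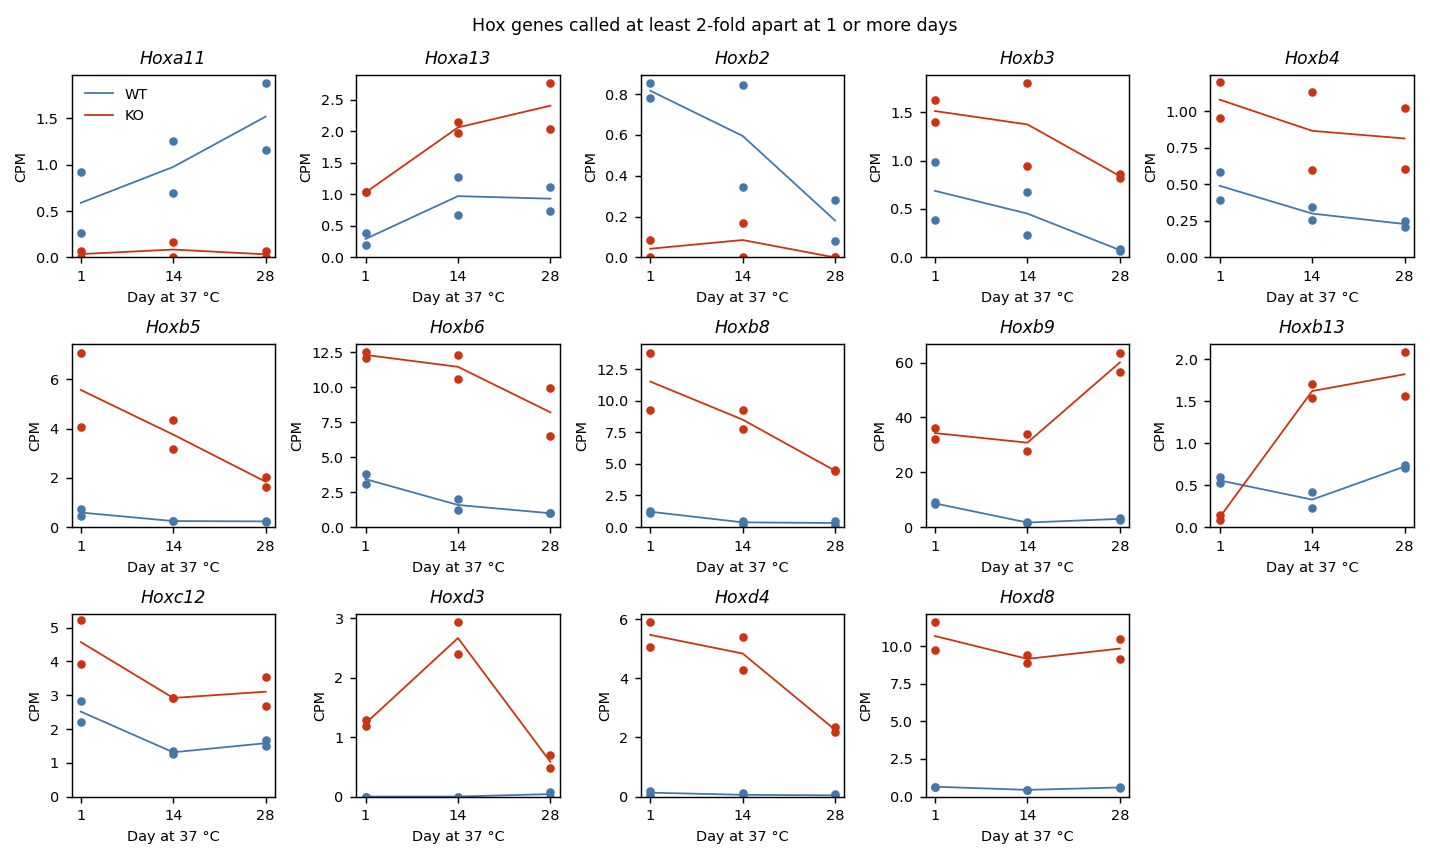
CPM (vertical axis, from 0, own scale in each panel) against day at 37 °C (horizontal axis) for the 14 Hox genes called at least 2-fold apart between the lines at 1 or more days. Points are libraries and lines join the group means of WT (blue) and KO (red); Hoxb9 falls in WT and rises to 60.1 CPM in KO, and Hoxb13 crosses between day 1 and day 14.

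Whether a change over the days differed between the lines was tested directly. The change from day 1 to day 14 differed for Hoxb9 (2.26 ± 0.27, adjusted p = 3.7e-06) and Hoxb13 (4.35 ± 0.89, 0.00153), 2 of 32 where 18.8% of all genes were called (9.19% upward and 9.65% downward). That from day 14 to day 28 differed for Hoxc4 (-0.81 ± 0.20, 0.00479), Hoxc6 (-0.66 ± 0.16, 0.00362), Hoxc10 (-0.60 ± 0.15, 0.0048), Hoxc8 (-0.54 ± 0.17, 0.0219) and Hoxa9 (-0.37 ± 0.13, 0.0481). These were 5 of 32 where 24.1% of all genes were called (12.6% upward and 11.5% downward), each with a lower KO minus WT value at day 28 than at day 14. From day 1 to day 28 it differed for Hoxb13 (3.45 ± 0.83, 0.00513), Hoxb9 (2.35 ± 0.22, 1.65e-07), Hoxb6 (1.23 ± 0.39, 0.0311) and Hoxc6 (-0.64 ± 0.15, 0.00519), 4 of 32 where 20% were called (10.6% upward and 9.46% downward). The falls of Hoxb8 between days 1 and 28 were -1.96 in WT and -1.37 in KO without a call of their difference. These differences use the same libraries as the comparisons between lines and days. The Hoxc8 call was lost without the first WT library of day 14 (-0.46), the first (-0.53) or second KO library of day 14 (-0.54), or the first KO library of day 28 (-0.44). That of Hoxb6 was lost without the first WT library of day 1 (1.08) or 28 (1.22), either KO library of day 1 (1.24 and 1.21) or the second of day 28 (0.86). That of Hoxa9 was lost whichever library was left out (-0.44 to -0.30), apart from the second WT library of day 28.

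The noncoding transcripts that lie inside the clusters are listed here beside the coding genes. Hoxd3os1 (chromosome 2, 74703248 to 74716130, minus strand) starts within the Hoxd3 and Hoxd4 genes and runs antisense across and past the whole of Hoxd8. Hoxd8 has no exon base opposite an antisense exon. Hoxd3os1 had 4 and 2, 1 and 0, and 1 and 0 counts in WT and 46 and 50, 26 and 36, and 21 and 17 in KO. It was higher by 4.21 ± 0.47 at day 1 (adjusted p = 4.31e-07), by 57.1-fold on the counts at day 14 (9.88 to 2290) and by 38.2-fold at day 28 (6.46 to 1550). Hoxb5os had 9 and 6, 4 and 5, and 2 and 2 counts in WT and 33 and 30, 15 and 29, and 12 and 16 in KO (2.33 ± 0.42, 2.13 ± 0.51 and 2.74 ± 0.65, called at all 3 days). Hoxa11os was lower at day 1 (13 and 12 counts in WT, 1 and 4 in KO, adjusted p = 0.0213) and day 14 (-2.90 ± 0.62) and not called at day 28 (-1.12 ± 0.47, adjusted p = 0.0596). Hoxb3os was lower at day 1 (-2.52 ± 0.69), at 0.09 ± 0.69 at day 14 and higher at day 28 (1.96 ± 0.77). Hotair, the long noncoding RNA of HoxC, was not called at any day (0.04 ± 0.24, 0.30 ± 0.29 and -0.21 ± 0.27). In HoxA, Hotairm1 (-0.85 ± 0.30) and Hoxaas3 (-1.13 ± 0.42) were lower at day 28 only. The antisense rows overlap coding exons: 52.9% of those of Hoxb3 and 27.3% of those of Hoxb2 lie opposite an antisense exon, and without a stated strand setting the reads of such partners cannot be told apart.

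The machinery that acts on Hox clusters, or with Hox proteins, is given from lists chosen with earlier results known. Of all 13772 genes tested, 40.3%, 49.7% and 41% were called at days 1, 14 and 28, and the share called in each list is given beside its counts. Of 9 TALE cofactors, 3 were higher and 2 lower at day 1, against 2 and 3 on day 14 and 2 and 3 on day 28 (55.6% called each time). Meis1, a partner of Hox proteins, was higher at each day (0.55 ± 0.14, 0.51 ± 0.14 and 0.67 ± 0.12). Pbx4 was lower at each day (-1.30 ± 0.24, -1.74 ± 0.30 and -1.80 ± 0.26) and Pknox2 at days 14 (-2.10 ± 0.40) and 28 (-1.75 ± 0.28). Meis3 was higher at day 1 (0.62 ± 0.10) and Pknox1 at days 14 (0.42 ± 0.11) and 28 (0.36 ± 0.10).

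Of 12 genes of Polycomb repressive complex 2, which methylates histone H3 at silent Hox genes, 0 were higher and 3 lower at day 1, against 3 and 3 on day 14 and 5 and 2 on day 28 (25%, 50% and 58.3% called, with 40.3%, 49.7% and 41% of all genes). Its catalytic gene Ezh2 was at 0.08 ± 0.07 at day 1 without a call and was higher at day 14 (0.46 ± 0.07) and day 28 (0.35 ± 0.07). Jarid2 (0.65 ± 0.12 at day 14), Epop (0.74 ± 0.17 at day 28) and Suz12 (0.37 ± 0.07 at day 28) were higher. Phf1 was lower at each day (-0.28 ± 0.09, -0.73 ± 0.09 and -0.70 ± 0.09), Mtf2 at days 1 (-0.31 ± 0.07) and 14 (-0.44 ± 0.07), and Ezh1 at day 28 (-0.24 ± 0.09). Of 20 genes of complex 1, 4 were higher and 4 lower at day 1, against 5 and 5 on day 14 and 4 and 6 on day 28, shares (40%, 50% and 50%) near those of all genes. Within it Cbx7 (-0.72 ± 0.11, -1.02 ± 0.12 and -0.68 ± 0.10) and Pcgf5 (-0.88 ± 0.10, -1.09 ± 0.11 and -0.40 ± 0.09) were lower at each day, and Cbx6 higher (0.79 ± 0.07, 0.61 ± 0.07 and 0.46 ± 0.07). Cbx2 (0.33 ± 0.10 at day 1) was also higher, as was Rnf2 at each day (0.21 ± 0.08, 0.33 ± 0.08 and 0.46 ± 0.08).

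Of 18 trithorax-group activators and H3K27 demethylases, 6 were higher and 5 lower at day 1, against 10 and 2 on day 14 and 5 and 6 on day 28 (61.1%, 66.7% and 61.1% called, with 40.3%, 49.7% and 41% of all genes). Kmt2a, the methyltransferase that maintains Hox transcription, was called at day 28 only (-0.20 ± 0.07, adjusted p = 0.0259), and Mllt3, a reader of acylated histones that works with Dot1l, was lower at each day (-0.87 ± 0.15, -1.24 ± 0.15 and -1.60 ± 0.13). Rbbp5 was higher at each day (0.42 ± 0.07, 0.51 ± 0.07 and 0.55 ± 0.06), and so were Dot1l (0.26 ± 0.07, 0.45 ± 0.08 and 0.40 ± 0.08), Kat6a (0.22 ± 0.07, 0.55 ± 0.07 and 0.22 ± 0.07) and Ash2l (0.25 ± 0.06, 0.16 ± 0.06 and 0.45 ± 0.06). Aff1 was lower at days 1 (-0.62 ± 0.07) and 28 (-0.17 ± 0.07), as was the demethylase Kdm6a (-0.24 ± 0.09 and -0.39 ± 0.09). Psip1 was lower at days 1 (-0.19 ± 0.06) and 14 (-0.17 ± 0.06).

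Of 13 tested genes for retinoic acid supply and receptors, 4 were higher and 4 lower at day 1, against 3 and 3 on day 14 and 3 and 6 on day 28 (61.5%, 46.2% and 69.2% called, with 40.3%, 49.7% and 41% of all genes). Dhrs3, which reduces retinaldehyde to retinol, was lower at each day (-1.87 ± 0.24, -2.12 ± 0.25 and -0.82 ± 0.17). Rdh10, which oxidises retinol, was higher at each day (0.41 ± 0.13, 0.40 ± 0.15 and 0.56 ± 0.13), and so was the receptor gene Rxra (0.37 ± 0.08, 0.21 ± 0.08 and 0.32 ± 0.08). The receptor gene Rara was higher at day 14 (0.33 ± 0.09) and lower at day 28 (-0.33 ± 0.08). The 3 genes that degrade retinoic acid differed among themselves. Cyp26b1 was higher at day 1 (1.17 ± 0.21). Cyp26a1 and Cyp26c1, added after their values were seen, were lower, Cyp26a1 at day 1 (2.81 CPM in WT, 0.537 in KO) and Cyp26c1 at each day (2.06, 2.49 and 2.82 in WT, 0.324, 0.0944 and 0.627 in KO). Of 10 tested genes of other upstream regulators, 4 were higher and 1 lower at day 1, against 4 and 3 on day 14 and 6 and 2 on day 28 (50%, 70% and 80% called, with 40.3%, 49.7% and 41% of all genes). Gdf11, a signal that switches on posterior Hox genes in the embryo, was higher at each day (1.30 ± 0.09, 1.50 ± 0.09 and 0.39 ± 0.10), and so was Nipbl, a cohesin loader (0.29 ± 0.07, 0.46 ± 0.07 and 0.41 ± 0.07). Smc3, a cohesin subunit, was lower at days 1 (-0.33 ± 0.06) and 14 (-0.25 ± 0.06), and Egr2 at day 28 (-0.83 ± 0.18). Smc1a, another subunit, was lower at day 14 (-0.16 ± 0.06) and higher at day 28 (0.18 ± 0.06).

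Of 13 tested genes that flank the clusters, 4 were higher and 1 lower at day 1, against 6 and 2 on day 14 and 7 and 1 on day 28, none by 2-fold (38.5%, 61.5% and 61.5% called, with 40.3%, 49.7% and 41% of all genes). Beside HoxD, Lnpk (0.40 ± 0.08, 0.45 ± 0.08 and 0.72 ± 0.08) and Atp5g3 (0.45 ± 0.07, 0.68 ± 0.08 and 0.36 ± 0.08) were higher at each day. Beside HoxB, Snx11 was higher at days 1 (0.45 ± 0.14) and 14 (0.55 ± 0.16). Nfe2l1 was lower at days 1 (-0.32 ± 0.06) and 14 (-0.95 ± 0.06) and higher at day 28 (0.21 ± 0.06). Beside HoxC, Cbx5 was higher at each day (0.28 ± 0.06, 0.28 ± 0.06 and 0.40 ± 0.06) and Hnrnpa1 at day 14 (0.57 ± 0.07). Calcoco1 was lower at day 14 (-0.25 ± 0.08) and higher at day 28 (0.38 ± 0.07). Beside HoxA, Skap2 was lower at day 28 (-0.29 ± 0.07). The homeobox genes Evx1 and Evx2, at the ends of HoxA and HoxD, had group means of at most 0.158 CPM.

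Of 23 other tested homeobox and T-box genes that mark position in the embryo, 8 were higher and 7 lower at day 1, against 13 and 4 on day 14 and 6 and 5 on day 28 (65.2%, 73.9% and 47.8% called, with 40.3%, 49.7% and 41% of all genes). Msx2, a gene of skull and limb bud, was higher at each day (1.84 ± 0.40, 3.28 ± 0.47 and 2.87 ± 0.56). Alx1, a gene of facial mesenchyme, had group means of 5.94, 10.4 and 9.99 CPM in WT and 0, 0.0472 and 0.0865 in KO and was called lower at each day (adjusted p at most 6.58e-09). Lhx2, a limb bud gene, was lower at each day (-2.10 ± 0.18, -1.45 ± 0.15 and -0.99 ± 0.13). The hindlimb gene Pitx1 was higher at days 14 (0.79 ± 0.11) and 28 (1.01 ± 0.11), Tbx2 at days 1 (1.00 ± 0.13) and 14 (1.20 ± 0.13), and Lhx9 at day 14 (1.54 ± 0.28).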

How the data were processed

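The deposited table held whole-number read counts per gene for 12 libraries. Per the submitters' processing notes, the authors aligned reads with STAR to mm10 and counted them with featureCounts of Subread; edgeR is named there without a role. Strand setting, annotation and handling of multi-mapping reads: not given in the sources used here. Of 32248 rows, 9345 had no count and 3 transgene rows were left out. In R 4.3.3 with edgeR 4.0.16, filterByExpr (minimum count 10, minimum total 15) kept 13772 genes. After TMM scaling (factors 0.9417 to 1.051), a quasi-likelihood model with 1 coefficient per group was fitted to all 12 libraries, and 12 comparisons were tested two-sided with Benjamini-Hochberg adjustment over all genes. CPM use TMM-scaled totals. Exons, positions and overlaps come from a GRCm38 annotation, which is the build of the deposited counts, and promoter windows from RefSeq. The naming rule took every tested Hox gene and, of the other lists, the 2 highest and 2 lowest called genes per day with average log2 CPM of at least 1, plus genes such as Ezh2, Kmt2a and Meis1; a few genes it picks are not reported here. The members and lists were chosen with earlier results of these data known. Alternatives were DESeq2 1.42.0, other scalings and filters, a replicate block, the 4 libraries of a day alone and each library left out. The code was tested on simulated data.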

Additional observations from a re-analysis of the deposited data

Results flagged for a closer look

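The results here are those in which a change over the days differed between the lines by a test of the difference itself (edgeR quasi-likelihood test, adjusted p below 0.05, log2 scale, KO minus WT). Each value is the signed change in KO minus that in WT, so a positive value can also mean a smaller fall in KO. From day 1 to day 14 this value was 4.35 for Hoxb13 and 2.26 for Hoxb9. From day 14 to day 28 it was negative for Hoxa9 (-0.37), Hoxc10 (-0.60), Hoxc8 (-0.54), Hoxc6 (-0.66) and Hoxc4 (-0.81). From day 1 to day 28 it was positive for Hoxb13 (3.45), Hoxb9 (2.35) and Hoxb6 (1.23) and negative for Hoxc6 (-0.64). In Hoxb9 the sign of the change itself was opposite in the lines, with a fall of 1.54 ± 0.19 in WT and a rise of 0.81 ± 0.11 in KO between days 1 and 28, each called. Hoxc6 also went opposite ways, with a called rise in WT and a called fall in KO between days 14 and 28. Both Hoxc6 calls were lost with some libraries left out. Hoxb13 rests on 1 and 2 counts in the KO libraries of day 1. DESeq2 gave its change from day 1 to day 14 no adjusted p.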

How the results depend on the processing

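No called Hox value turned its direction under any alternative run. Of the 3 genes lower at day 1, 1 was called with DESeq2, 1 with a minimum count of 20 and 1 with the 4 libraries of that day alone. Of the 2 lower at day 14, 1 was called with DESeq2, 1 with no filter, 0 with a minimum count of 20 and 0 with the 4 libraries alone. At both days the genes without a call under the last 2 settings were not among the genes tested there, so these are not failed calls. In place of 1 lower at day 28, 2 were called with library totals only, 2 with no filter and 0 with a minimum count of 20, which left Hoxa11 out of the genes tested. With DESeq2 the calls went from 7 to 4 for day 14 minus day 1 in KO. They went from 2 to 1 for the difference between the lines in the change from day 1 to day 14 (Hoxb13 got no adjusted p there), and from 5 to 3 for that from day 14 to day 28. With 1 library left out, calls of KO minus WT ranged from 13 to 21 at day 1 (12 to 18 higher, 0 to 3 lower). They ranged from 15 to 21 at day 14 (15 to 19 and 0 to 2) and 12 to 17 at day 28 (11 to 15 and 1 to 2). In WT they ranged from 4 to 10 between days 1 and 14, 2 to 6 between 14 and 28 and 9 to 14 between 1 and 28, and in KO from 3 to 9, 7 to 12 and 10 to 15. The differences of change ranged from 2 to 4, 3 to 6 and 3 to 4. Where 1 library was left in a group, it was assumed to vary like the others.

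Whether the replicate numbers pair the samples is not settled by these data. Same-numbered libraries deviated together with a correlation over 0.1 in 1 of 15 pairs of groups (-0.0464 to 0.161), that of WT and KO at day 28. A replicate block left 20 calls at day 1 and 16 at day 28 and gave 21 in place of 19 at day 14, adding Hoxc9 (0.24, adjusted p = 0.0459) and Hoxc11 (0.50, adjusted p = 0.0494).

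With 2 libraries a group and genes such as Hoxd3, Hoxa11, Hoxb2 and Hoxb13 at 0 to 31 counts, fold changes of these genes are known only within wide intervals. Replicates differed by more than sampling noise in every group, most in WT at day 28 (chi-square per degree of freedom 12.17, against 1.427 in KO at day 1). Scaling by library totals moved the median of all genes by at most 0.0887 on the log2 scale.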
